A study of Mus musculus with 2 samples.

Results

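Some barcodes of a single-cell RNA library carry few genes without being dominated by mitochondrial RNA. The barcodes described here are those with fewer than 1000 genes detected and at most 15% of their UMIs (unique molecular identifiers, each standing for 1 captured RNA molecule) from mitochondrial genes, whose symbols begin with mt-. This rule took 139 of the 8191 barcodes deposited for the MyoD-WT library (1.70%, 95% interval 1.43 to 2.00) and 701 of the 7670 deposited for the MyoD-KO library (9.14%, 8.50 to 9.81). They are called low-gene barcodes below. They held 166675 of 285232252 UMIs in the WT library and 891379 of 282739488 in the KO library. Shares have exact Clopper-Pearson intervals and levels exact Poisson intervals, all two-sided at 95%, and these cover counting error only. Zero counts are instead given a floor of 3 counts.

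Both libraries came from mouse embryonic fibroblasts turned into induced myogenic progenitor cells. Such cultures hold stem-like muscle progenitors beside differentiating muscle cells. Each library is 1 clone at passage 4, of genotype MyoD-WT or MyoD-KO, and both carry the strain label Myod1tm1Jae. Both clones were made with Myf6 overexpression and picked once they no longer depended on it, and both were grown with bFGF (10 ng/mL) and the small molecules CHIR99021 (3 µM), forskolin (5 µM) and RepSox (5 µM). For each library 12000 cells were used and about 10000 targeted, and RNA was captured at its 3′ end. With 1 clone for each genotype there is no replicate, and the values below therefore carry counting intervals but no significance test. A difference between the libraries cannot be told apart from a difference between these clones or their preparation.

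Striated muscle contracts when myosin thick filaments pull on actin thin filaments inside the sarcomere, whose ends are anchored in the Z disc and whose giant protein titin spans from the Z disc to the middle of the sarcomere. Troponin and tropomyosin on the thin filament switch this pull on when the sarcoplasmic reticulum releases calcium. Myoblasts that leave the cell cycle switch these genes on together, fuse into multinucleated myotubes and later exchange embryonic for fetal and adult myosins.

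The genotype label was looked at first. Myod1, the myogenic transcription factor named in the genotype, was at 192 CPM in the WT low-gene barcodes (32 UMIs in 26 barcodes) and at 60.6 CPM in the KO ones (54 UMIs in 49 barcodes). CPM are UMIs per 1000000 UMIs, counted over all barcodes of a class added together. In kept cells outside the muscle class Myod1 was at 157 CPM in WT and 62.0 CPM in KO. UMIs were thus present in the KO library too. The labels do not say which bases of the gene are missing, so a 3′ tag may lie outside the deleted part and these values check nothing.

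The low-gene barcodes were alike in size in both libraries. In WT the median was 948 UMIs (lowest 500, highest 8482) and 563 genes (lowest 310, highest 986), and in KO it was 949 UMIs (lowest 501, highest 8866) and 557 genes (lowest 309, highest 998). Cells of the reference class had medians of 38314 UMIs in WT and 49454 in KO. The gene maximum cuts through a range that is filled on both sides. In KO 67 barcodes lay within 100 genes below it, with a median sarcomere share of 8.98%, and 50 lay within 100 genes above it, with 10.4%. In WT these were 7 barcodes with 9.58% and 13 with 0.745%. The mitochondrial maximum cuts through a thin range, with 1 WT and 3 KO barcodes at 14 to 15% and 1 WT and 2 KO barcodes at 15 to 16%. The 2 libraries shared 14 barcode sequences, of which 3 were low-gene in WT and 1 in KO.

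**Figure D1:**
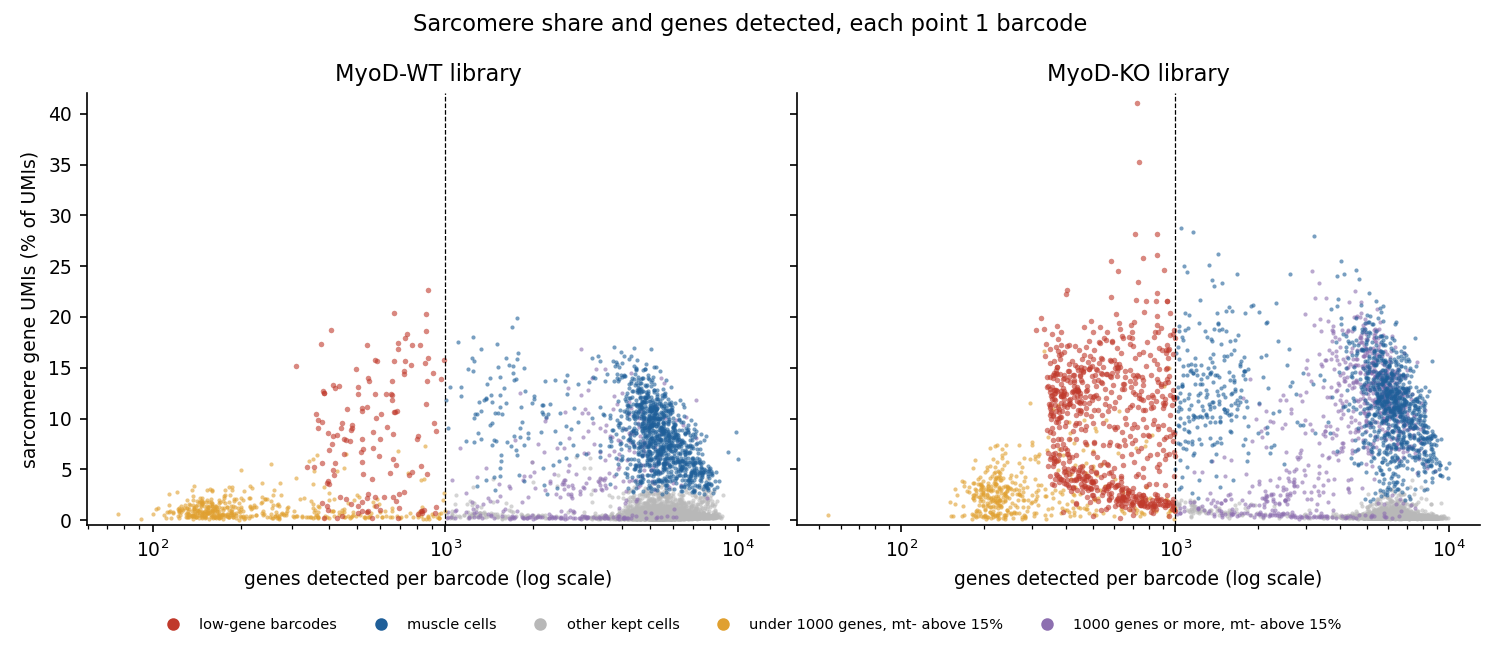
Share of each barcode's UMIs that came from 60 sarcomere genes (y axis, %) against the genes detected in it (x axis, log scale), for the MyoD-WT library (left) and the MyoD-KO library (right), with 1 point for each barcode and a dashed line at 1000 genes. Low-gene barcodes (red) spread from near 0 to 22.7% in WT and to 41.1% in KO. Barcodes under 1000 genes with over 15% mitochondrial UMIs (yellow) lie mostly under 5%, as a share of UMIs that are largely mitochondrial.

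Most low-gene barcodes carried muscle transcripts, as their label says. The genes Acta1 and Actc1 (skeletal and cardiac actin), Myh3 (embryonic myosin heavy chain), Mylpf and Myl1 (myosin light chains) made up at least 1% of UMIs in 102 of 139 WT barcodes (73.4%, 65.2 to 80.5) and in 616 of 701 KO barcodes (87.9%, 85.2 to 90.2). In 33 WT and 180 KO barcodes this share lay between 0.5 and 2%, near the 1% line. All deposited barcodes held such a share in 17.3% of WT and 33.6% of KO barcodes. The 60 sarcomere genes together gave 8.66% of low-gene UMIs in WT (8.52 to 8.79) and 9.22% in KO (9.16 to 9.28). The same sum was 1.79% and 3.49% over all deposited barcodes, and 0.47% and 0.37% over kept cells outside the muscle class. In barcodes with under 1000 genes and over 15% mitochondrial UMIs it was 0.74% of UMIs in WT (438 barcodes) and 1.60% in KO (410 barcodes). Mitochondrial UMIs made up 84.6% and 84.3% of the UMIs there, which lowers any other share of all UMIs. These 2 values therefore do not show less sarcomere RNA among the remaining UMIs.

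Detection was compared after every barcode had been thinned at random to 500 UMIs, so that depth was equal. Tnnc2, the calcium sensor of fast muscle troponin, then had a UMI in 79.1% of WT low-gene barcodes, against 87.9% of WT muscle cells and 8.09% of the other kept cells. In KO these shares were 82.6%, 91.0% and 5.15%. Acta1 was seen in 74.1% and 94.4% of low-gene barcodes in WT and KO and in 3.91% and 10.8% of the other kept cells. Mylpf was seen in 76.3% and 90.6%, against 8.38% and 9.49%. Acta1 and Mylpf are among the 5 genes whose 1% line divides muscle cells from the other kept cells. Their low detection in the other kept cells is therefore set by that rule. Tnnc2 is not among the 5 genes. Whether the UMIs of these genes in the other kept cells are free RNA or low expression was not tested. The median depth of these cells before thinning was 35108.5 UMIs in WT and 39896 in KO. At its own depth Tnnc2 was seen in 89.2% of WT and 93.4% of KO low-gene barcodes and in 88.9% and 94.6% of the other kept cells, so that without thinning the classes looked alike. Pax7, the transcription factor of muscle stem cells, went the other way, though in WT not beyond counting error. It had a UMI in 2.16% of WT low-gene barcodes (3 barcodes, 0.447 to 6.18) and 0.713% of KO ones (0.232 to 1.66). In the other kept cells these shares were 6.17% (5.58 to 6.80) and 7.09% (6.37 to 7.87), and in muscle cells 0.511% and 0.691%.

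The low-gene barcodes were not uniform. Their sarcomere shares, ordered from the lowest to the highest barcode, had a 10th percentile of 0.949%, a median of 8.35% and a 90th percentile of 15.8% in WT, and 1.92%, 10.0% and 17.0% in KO. In KO, 351 of 701 barcodes (50.1%) had a share of 10% or more, 125 (17.8%) lay between 5 and 10%, and 225 (32.1%) lay under 5%. In WT these were 55 (39.6%), 38 (27.3%) and 46 (33.1%) of 139. The middle range held the fewest barcodes in both libraries, but the ranges differ in width. Among WT barcodes with 300 to under 500 genes it held the most, 21 of 47 against 14 under 5% and 12 at 10% or more.

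KO barcodes under 5% formed a band that sank as genes increased. Their median sarcomere share was 3.93% at 300 to under 500 genes (65 barcodes), 2.37% at 500 to under 750 genes (99 barcodes) and 1.71% at 750 to under 1000 genes (61 barcodes). KO barcodes at 10% or more stayed between medians of 13.0% and 14.9% over the same bins. These ranges also differed in ribosomal protein genes, whose median share was 30.5% of UMIs in the KO barcodes under 5% and 15% in those at 10% or more. In WT it was 27.3% and 21.8%. Since the ranges were set on the sarcomere share itself, these values describe the barcodes and test nothing.

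To ask which muscle transcripts such barcodes carry, their summed UMIs were set against those of muscle cells of the same library. These are barcodes with at least 1000 genes, at most 15% mitochondrial UMIs and at least 1% of UMIs from the 5 genes named above, and there were 1174 in WT and 1158 in KO. Because the reference was chosen on 5 of the sarcomere genes, the level of the sarcomere total against it is partly set by that choice. A sum over barcodes cannot tell fewer muscle barcodes from less muscle RNA in each. The sarcomere total was 1.13 times the reference in WT (8.66% against 7.66% of UMIs, interval of the ratio 1.11 to 1.15) and 0.858 times in KO (9.22% against 10.7%, 0.852 to 0.864). Without those 5 genes the ratios were 1.18 and 0.830. These directions depended on processing. On the log2 scale the WT ratio of 0.18 became -0.01 with a maximum of 500 genes, -0.04 with TMM scaling and -0.66 against cells with at least 5% of UMIs from the 5 genes, and the KO ratio of -0.22 became 0.03 when only low-gene barcodes above the 1% line were used.

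A gene was called higher or lower where the classes differed at least 2-fold and the higher class had at least 100 CPM. Of 1526 WT genes that reached this level, 147 were higher in low-gene barcodes (9.63%) and 148 lower (9.7%). Of 1496 KO genes, 64 were higher (4.28%) and 200 lower (13.4%). In both libraries 27 genes were higher and 66 were lower, and among the 1227 genes tested in both only Mid1 was called in opposite directions. TMM scaling, which assumes that most genes do not differ, lowered every WT log2 ratio by 0.21 and raised every KO one by 0.21. It gave 95 higher and 198 lower genes in WT and 109 higher and 151 lower in KO. The median log2 ratio of all genes tested was 0.11 in WT and 0.12 in KO, and the lists are read beside it.

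**Figure D2:**
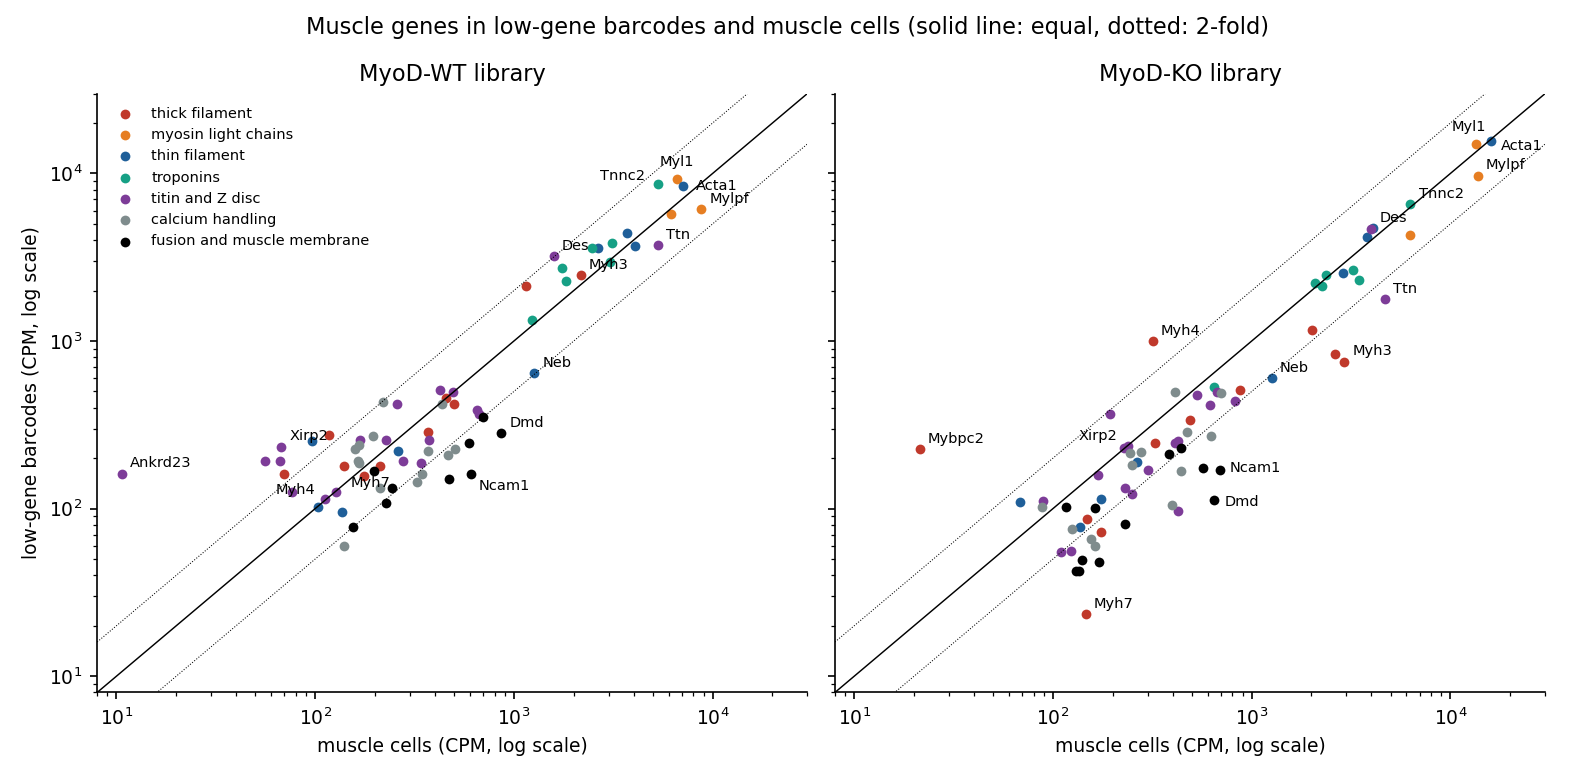
Level of each tested muscle gene in low-gene barcodes (y axis, CPM, log scale) against its level in muscle cells (x axis, CPM, log scale), for the MyoD-WT library (left) and the MyoD-KO library (right), coloured by role. The abundant filament genes such as Acta1, Myl1 and Tnnc2 lie between the 2-fold lines in both libraries, while Dmd and Ncam1 lie below the lower 2-fold line.

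Of 60 sarcomere genes, 58 had at least 1 UMI in the low-gene barcodes of each library. Myl3 and Tnni3, the light chain and the troponin I best known from heart, had none in either. Of the 48 tested in WT, 8 were higher and 0 lower, with a median log2 ratio of 0.19, which lies below 0 once the TMM shift is taken off. Of the 49 tested in KO, 2 were higher and 10 lower, with a median of -0.50. In WT the count of higher genes was above the 9.63% of all genes, and in KO the count of lower genes was above the 13.4% of all genes. The most abundant filament genes were in neither group.

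Among thick filament genes the embryonic and slow myosins were lower in KO and uncalled in WT against all muscle cells, a difference between the libraries that was not tested. Myh3, the embryonic heavy chain, was at 2484 CPM in WT low-gene barcodes against 2168 in WT muscle cells (ratio 1.15, 1.04 to 1.26), and at 754 CPM in KO against 2921 (ratio 0.258, 0.239 to 0.278), which is a lower call. Myh7, the slow heavy chain, was at 180 against 213 CPM in WT and at 23.6 against 146 CPM in KO (ratio 0.161, 0.0997 to 0.246), also lower, on 21 UMIs. Against muscle cells with 1000 to under 2000 genes the KO log2 ratios of Myh3 and Myh7 were 0.42 and -0.30, so that neither was 2-fold lower. Myh8, the perinatal heavy chain, was at 2130 against 1147 CPM in WT and at 1158 against 2019 CPM in KO, called in neither library.

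Myh4, the fastest adult heavy chain, was higher in both libraries, at 162 against 69.7 CPM in WT (ratio 2.32, 1.53 to 3.39) and at 994 against 318 CPM in KO (ratio 3.13, 2.92 to 3.35). In KO a single barcode held 501 of its 886 UMIs, and without that barcode the ratio was 1.36, short of the 2-fold line. In WT the log2 ratio turned from 1.22 to -0.73 against cells with at least 5% of UMIs from the 5 genes. Mybpc2, the fast form of myosin-binding protein C, was at 227 CPM in KO low-gene barcodes against 21.4 CPM (ratio 10.6, 9.09 to 12.3), spread over 45 barcodes, and 7.46 without the highest of them. In WT it had 2 UMIs in 2 low-gene barcodes (ratio 11.9, 1.41 to 45.5). Myom2, a protein of the M band that links thick filaments, was at 276 against 117 CPM in WT (ratio 2.36, 1.73 to 3.16), and at 247 against 326 CPM in KO. Over the list, 2 of 10 genes were higher in WT and 0 lower, and 2 of 11 were higher in KO and 4 lower, with median log2 ratios of 0.10 and -0.79.

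Myosin light chains lay within 2-fold of their level in muscle cells. Myl1, the fast essential light chain, was at 9294 against 6596 CPM in WT and at 15063 against 13527 CPM in KO. Mylpf, the fast regulatory light chain, was at 6108 against 8768 CPM and at 9705 against 13714 CPM, the ratio being 0.697 in WT and 0.708 in KO. Myl4, the embryonic and atrial light chain, was at 5742 against 6174 CPM and at 4301 against 6259 CPM. None of the 3 tested light chains was called in either library. Against muscle cells with 1000 to under 2000 genes, however, the log2 ratios were -0.16 and -0.30 for Myl1 in WT and KO, -1.10 and -0.80 for Mylpf and -0.88 and -0.94 for Myl4, so that Mylpf in WT was past 2-fold. In WT the intervals of the 3 ratios did not overlap, and in KO that of Myl1 lay above the other 2, which overlapped.

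Most abundant thin filament genes lay within 2-fold as well, while Neb in KO and Tpm3 in WT were called. Acta1 was at 8472 against 7101 CPM in WT (ratio 1.19, 1.13 to 1.26) and at 15585 against 15965 CPM in KO (ratio 0.976, 0.960 to 0.993). Actc1 was at 3702 against 4060 CPM and at 2542 against 2874 CPM. Tpm2, the beta tropomyosin, was at 1.36 times its muscle level in WT and 1.09 times in KO. Neb, the giant ruler protein of the thin filament, was at 642 against 1265 CPM in WT (ratio 0.507, just inside the 2-fold line) and at 600 against 1259 CPM in KO (ratio 0.477, 0.437 to 0.519), where it was called lower. Tpm3, the slow tropomyosin, was higher in WT at 252 against 96.8 CPM, and at 109 against 68.2 CPM in KO. In the other kept cells Tpm3 was at 161 and 176 CPM, so it is no marker of muscle in these libraries. Of 9 tested genes in each library, 1 was higher in WT and 1 lower in KO.

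No troponin was called in either library against all muscle cells. Of 7 tested genes the median log2 ratio was 0.32 in WT and -0.09 in KO. Tnnc2 was at 8676 against 5334 CPM in WT (ratio 1.63, 1.54 to 1.71) and at 6528 against 6276 CPM in KO (ratio 1.04, 1.01 to 1.07). Tnnt3, the fast troponin T that ties the complex to tropomyosin, had ratios of 1.57 and 1.07. Tnnc1 and Tnni1, the slow calcium sensor and the slow inhibitory subunit, had ratios of 1.24 and 0.966 in WT and of 0.818 and 0.663 in KO. Against muscle cells with 1000 to under 2000 genes Tnnc1 and Tnni1 were past 2-fold lower in KO, with log2 ratios of -1.13 and -1.09, and in WT Tnnc1 was at -0.64 and Tnnc2 at -0.11. In the comparison with all muscle cells the fast KO genes Tnnc2 and Tnnt3 thus stood above the slow Tnnc1 and Tnni1 by more than counting error.

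Titin and the Z disc gave called genes in WT upward and in KO downward. Ttn was at 3744 against 5307 CPM in WT (ratio 0.705, 0.651 to 0.763) and at 1777 against 4694 CPM in KO (ratio 0.379, 0.360 to 0.398), a lower call, and 1 KO barcode held 335 of its 1584 UMIs. Des, the intermediate filament desmin around the Z disc, was at 3222 against 1584 CPM in WT (ratio 2.03, 1.86 to 2.21) and at 4679 against 3987 CPM in KO. Without the highest barcode the WT ratio of Des was 1.77, short of 2-fold.

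The other 4 genes of this list called higher in WT encode Z disc and stress-associated proteins. Ankrd23, a titin-binding ankyrin repeat protein, was at 162 against 10.6 CPM (ratio 15.3, 9.96 to 22.5) on 27 UMIs in 12 barcodes. Xirp2, an actin-binding repeat protein, was at 234 against 67.4 CPM (ratio 3.47, 2.05 without the barcode that held 16 of its 39 UMIs). Tcap, the titin cap, was at 192 against 56.0 CPM (ratio 3.43), and Myoz1, a calcineurin-binding Z disc protein, at 192 against 66.7 CPM (ratio 2.88). In KO their ratios were 2.73 for Ankrd23 at 78.5 CPM, under the 100 CPM minimum, 0.999 for Xirp2, 1.49 for Tcap and 1.90 for Myoz1. In KO the lower genes besides Ttn included Flnc, the muscle filamin, at 96.5 against 425 CPM (ratio 0.227), Nrap at 122 against 251 CPM (ratio 0.488) and Klhl40, which stabilises thin filament proteins, at 56.1 against 124 CPM (ratio 0.454). Over the list, 5 of 19 tested genes were higher in WT and 0 lower, and 0 of 19 were higher in KO and 5 lower. Over all tested genes 9.63% were higher and 9.7% lower in WT, and 4.28% and 13.4% in KO. Against cells with at least 5% of UMIs from the 5 genes the WT log2 ratios of Myoz1 and Xirp2 turned to -0.36 and -0.013.

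Calcium handling genes were lower where they were called. In each library 5 genes were lower and 0 higher, of 14 tested in WT and 13 in KO, with median log2 ratios of -0.37 and -0.72. The lower genes among all tested were 9.7% in WT and 13.4% in KO. Atp2a2, a calcium pump of the sarcoplasmic reticulum, was at 210 against 467 CPM in WT (ratio 0.449) and at 105 against 396 CPM in KO (ratio 0.266). Casq2, a calcium-binding protein inside that reticulum, was at 228 against 508 CPM (ratio 0.449) and at 168 against 439 CPM (ratio 0.383). Ryr3, a calcium release channel, was lower in WT at 144 against 326 CPM and stood at 15.7 against 56.3 CPM in KO, under the minimum level. Jph1, which ties the reticulum to the cell membrane, was lower in KO at 59.5 against 162 CPM (ratio 0.367). Sln, a small inhibitor of the pump, was lower in WT at 60.0 against 140 CPM on 10 UMIs, and was at 102 against 88.1 CPM in KO.

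The muscle energy enzymes were not lower in either library. Of 13 tested in WT, 2 were higher and the median log2 ratio was 0.70, and of 16 tested in KO none was called and the median was 0.04. Ckm, the muscle creatine kinase that buffers ATP, was at 378 against 173 CPM in WT (ratio 2.18, 1.68 to 2.80) and at 976 against 909 CPM in KO. Pygm, the glycogen phosphorylase of muscle, was at 204 against 59.6 CPM in WT (ratio 3.42, 2.36 to 4.79) and at 173 against 193 CPM in KO. The glycolytic enzymes Tpi1 and Pgk1 had ratios of 1.79 and 1.60 in WT and of 1.04 and 1.41 in KO.

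Genes of cell fusion and the muscle membrane were the muscle list with the lowest medians, at -1.07 in WT and -1.56 in KO. Of 9 tested in WT 5 were lower, and of 12 tested in KO 8 were lower, with 0 higher in both, where all tested genes had 9.7% and 13.4% lower. Dmd, dystrophin, which links actin to the membrane, was at 282 against 863 CPM in WT (ratio 0.327, 0.240 to 0.435) and at 113 against 644 CPM in KO (ratio 0.176, 0.143 to 0.214). Ncam1, a cell adhesion molecule, was at 162 against 606 CPM (ratio 0.267) and at 171 against 689 CPM (ratio 0.247). Mymk, myomaker, the membrane protein that drives myoblast fusion, was at 150 against 471 CPM (ratio 0.318) and at 175 against 570 CPM (ratio 0.307). Cav3, the muscle caveolin, had ratios of 0.414 in WT, a lower call, and 0.520 in KO, and Itga7, the laminin receptor of muscle, was lower in KO with a ratio of 0.283.

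Regulators of muscle differentiation were mostly uncalled, with 1 lower of 7 tested in WT and 1 lower of 8 tested in KO. Their median log2 ratios were -0.36 and -0.51, while their summed levels, 7872 against 7064 CPM and 7088 against 6848 CPM, lay above the reference. Cdkn1c, a cell cycle inhibitor, was lower in WT at 786 against 1789 CPM (ratio 0.439, 0.367 to 0.521) and was at 2627 against 1511 CPM in KO (ratio 1.74, 1.67 to 1.81). In the other kept cells it was at 749 CPM in WT and 3343 CPM in KO. Mef2a, a transcription factor of muscle genes, was lower in KO at 185 against 467 CPM (ratio 0.397). Its relative Mef2c was at 3990 against 2012 CPM in WT (ratio 1.98, just short of 2-fold) and at 1621 against 1129 CPM in KO, where 1 barcode held 299 of its 1445 UMIs. In both libraries this excess of Mef2c alone was larger than that of the summed levels. Myog, the factor that starts terminal differentiation, had a UMI after thinning in 43.9% of WT low-gene barcodes and 42.6% of WT muscle cells, and in 34.1% and 37.8% in KO.

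**Figure D3:**
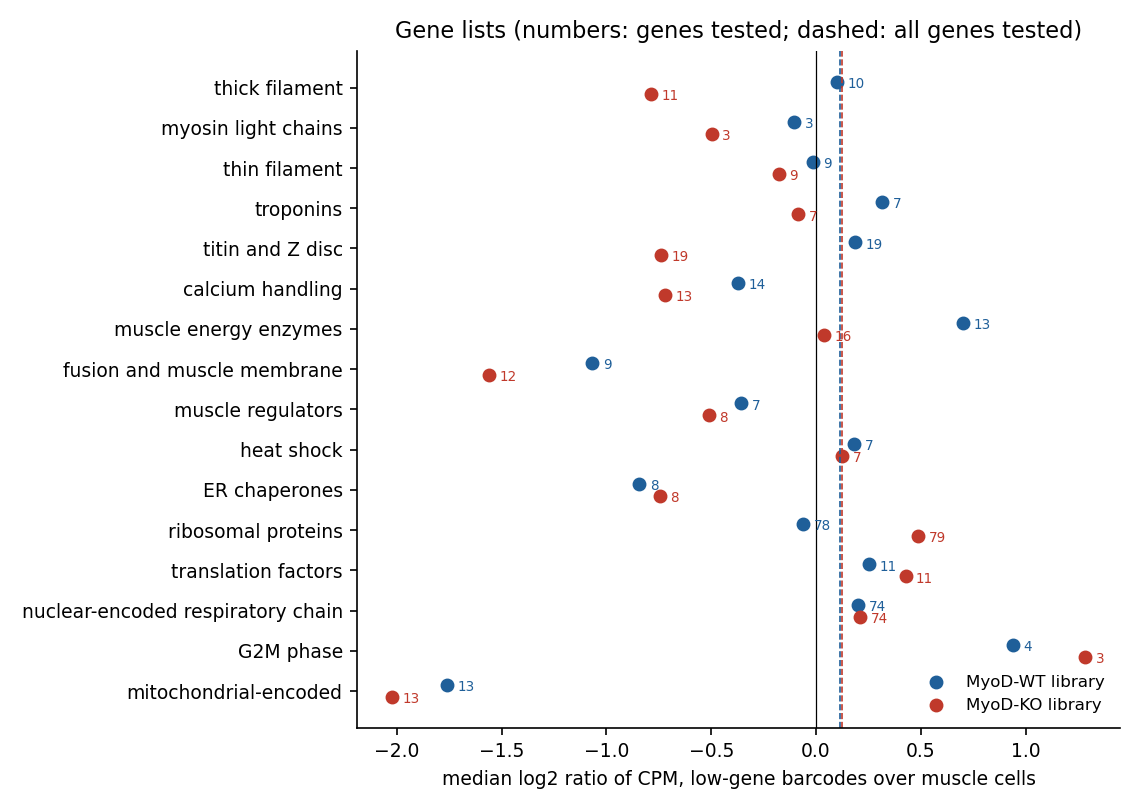
Median log2 ratio of low-gene barcodes over muscle cells for each gene list (x axis), for the MyoD-WT library (blue) and the MyoD-KO library (red), with the number of tested genes beside each point and dashed lines at the medians of all tested genes (0.11 and 0.12). Mitochondrial-encoded genes have the lowest medians (-1.76 and -2.02), and fusion and membrane genes the lowest among the muscle lists (-1.07 and -1.56).

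Genes that are long in the genome were low in this comparison. Gene spans were taken from an annotation of another build, GRCm38, by gene identifier, which matched 99.7% of the tested WT genes that are not mitochondrial. Of 205 WT genes that span 100 kb or more, 30.2% were lower and the median log2 ratio was -0.54, while of 268 genes under 5 kb 2.24% were lower and the median was 0.08. In KO 63.6% of 154 genes of 100 kb or more were lower, with a median of -1.28, against 0.955% of 314 genes under 5 kb, with a median of 0.36. Dmd, Ttn, Neb and Ncam1 are long genes of this kind, and Acta1, Mylpf and Tnnc2 are short. The part of gene length in the muscle results was not tested.

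These directions depended on which muscle cells served as reference. The muscle class includes 78 WT and 226 KO cells with 1000 to under 2000 genes, and a comparison with these alone was added after the data had been seen. Against them 348 of 1409 WT genes were higher (24.7%) and 35 lower (2.48%), and 100 of 1286 KO genes were higher (7.78%) and 12 lower (0.933%). Genes of 100 kb or more then had medians of 1.48 in WT (68.3% of 142 higher) and 0.34 in KO (18.6% of 59 higher). Ttn had log2 ratios of 1.21 in WT and 1.66 in KO, where this reference had 1624 and 562 CPM. Neb had 0.86 and 1.45, Dmd 1.96 and 0.91, Ncam1 0.99 and 1.05, Atp2a2 0.95 and 0.95, and Casq2 0.81 and 1.10. Myh3 in KO turned to 0.42. The median of the fusion and membrane list turned to 0.66 in WT and 0.26 in KO. The light chains, Acta1 (-0.22 in WT, -0.64 in KO) and the troponins named above were lower against this reference than against all muscle cells. Mymk and Cav3 did not turn, at -0.64 and -1.17 in WT and -0.39 and -0.88 in KO. Muscle cells with at least 4000 genes held 46552425 of the 48729413 UMIs of the WT reference and 53535825 of 55377212 in KO. Against them the counts were therefore bound to lie near those against all muscle cells. Of 1533 WT genes 145 were higher (9.46%) and 160 lower (10.4%). Of 1504 KO genes 65 were higher (4.32%) and 209 lower (13.9%).

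**Figure D4:**
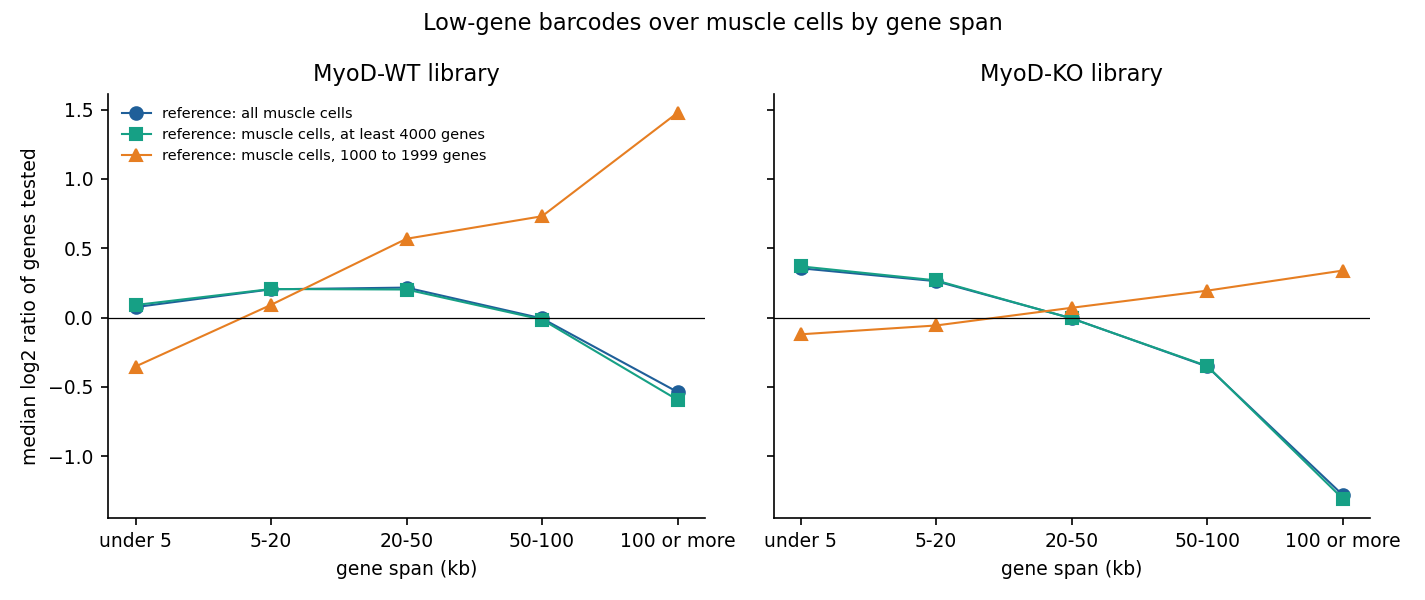
Median log2 ratio of low-gene barcodes over muscle cells (y axis) by the genomic span of the gene (x axis, kb), for the MyoD-WT library (left) and the MyoD-KO library (right), with 3 choices of the reference muscle cells. Against all muscle cells the line falls for genes of 100 kb or more, to -0.54 in WT and -1.28 in KO. The cells with at least 4000 genes hold most of the same UMIs and give nearly the same line. Against muscle cells with 1000 to under 2000 genes the line climbs to 1.48 and 0.34.

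Along the number of genes detected, the muscle barcodes did not change evenly. In the barcodes with at least 1% of UMIs from the 5 muscle genes, Ttn in WT was at 5347 CPM at 300 to under 500 genes, 1424 CPM at 1500 to under 2000 genes and 5374 CPM at 4000 genes or more. In KO it was at 2487, 442 and 4818 CPM in these bins. Mitochondrial UMIs followed the same course, at 2.16%, 0.61% and 8.36% of UMIs in WT and 3.92%, 1.10% and 10.3% in KO. Ribosomal protein genes ran opposite in WT, at 22.3%, 39.7% and 27.1% of UMIs, and in KO were at 17.7%, 28.2% and 18.3%. The bin from 750 to under 1000 genes held 20 such WT barcodes and the bin from 300 to under 500 genes 35.

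The sarcomere share itself varied less along this axis. In WT it was 9.60% at 300 to under 500 genes, highest at 13.5% at 750 to under 1000 genes, and 7.53% at 4000 genes or more. In KO it was 10.2% at 300 to under 500 genes, highest at 14.97% at 2000 to under 4000 genes, and 10.6% at 4000 genes or more. The portion of all barcodes that passed the 1% line was 97.96% at 300 to under 500 genes and 16.4% at 4000 genes or more in KO, and 74.5% and 14.6% in WT. In KO this was therefore 288 of the 294 barcodes in the lowest bin.

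**Figure D5:**
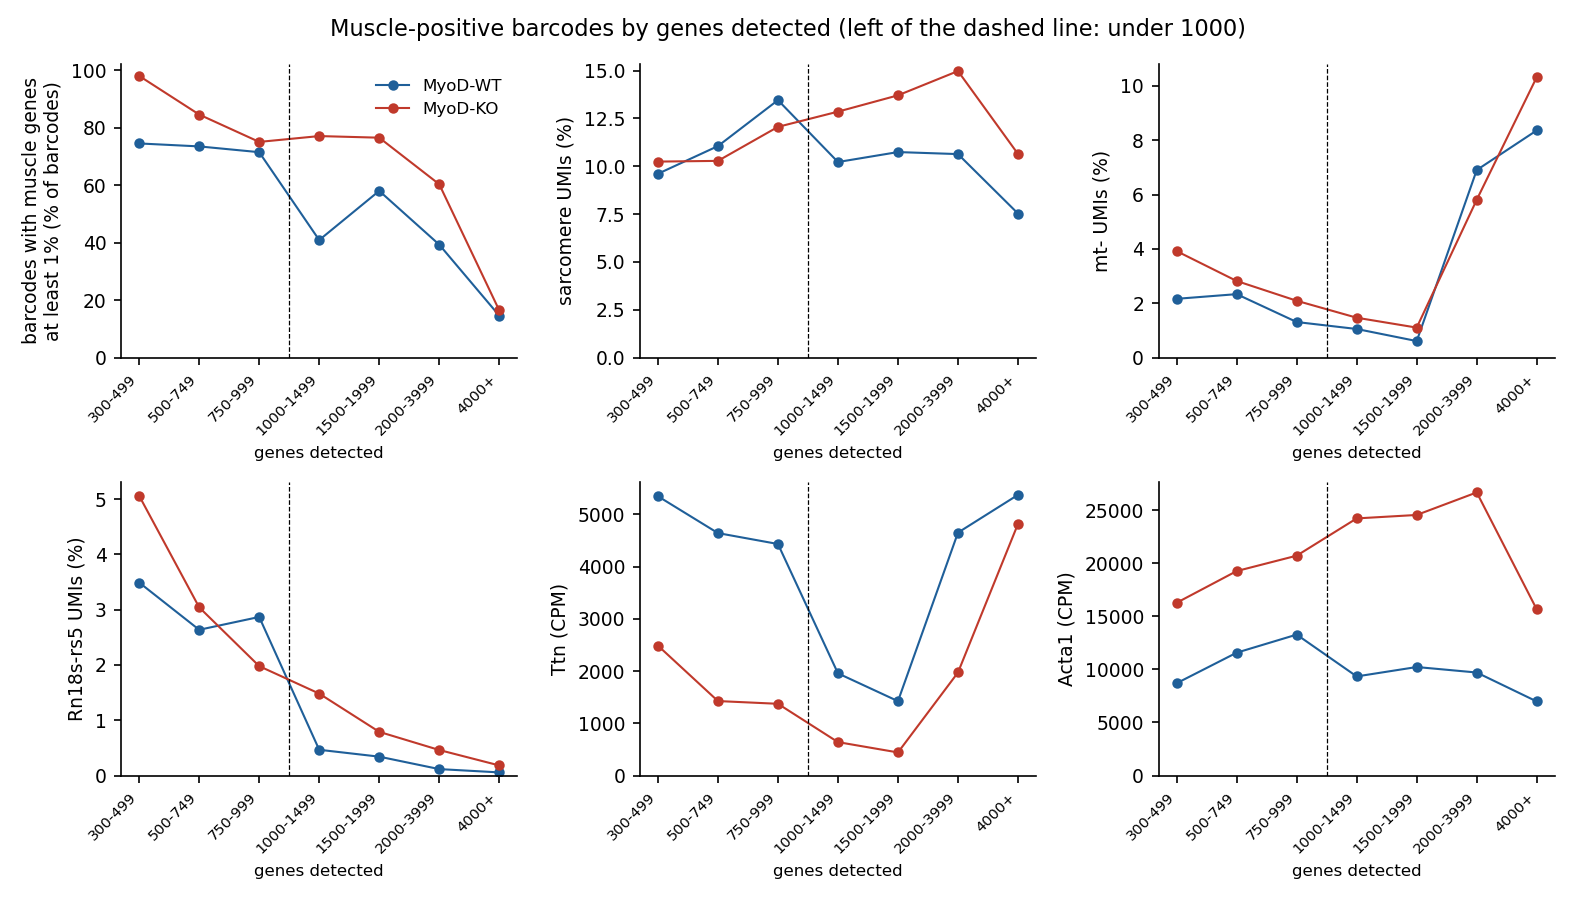
Muscle-positive barcodes (those with at least 1% of UMIs from the 5 muscle genes) in bins of genes detected (x axis), for the MyoD-WT library (blue) and the MyoD-KO library (red), with the share of barcodes that are muscle-positive (%), the shares of UMIs from sarcomere, mt- and Rn18s-rs5 genes (%), and the levels of Ttn and Acta1 (CPM). Ttn and mt- genes are lowest at 1500 to under 2000 genes (442 CPM and 1.10% in KO), while Rn18s-rs5 falls from 3.49% to 0.06% in WT and from 5.06% to 0.18% in KO.

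Outside the muscle lists, a transcript far higher in the low-gene barcodes was Rn18s-rs5, a sequence related to 18S ribosomal RNA. It held 28637 CPM in WT against 626 in muscle cells (ratio 45.7, 44.3 to 47.1) and 28143 CPM in KO against 2078 (ratio 13.5, 13.4 to 13.7), and was present in 132 of 139 WT and 695 of 701 KO barcodes. Ribosomal RNA has many near-identical copies, so how its reads were assigned is uncertain. Against muscle cells with 1000 to under 2000 genes the log2 ratios were 2.88 and 1.22. Muscle-positive and other low-gene barcodes held it alike in WT, at 2.87% and 2.84% of UMIs, and at 3.15% and 1.52% in KO.

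A further 4 genes were far higher in both libraries against all muscle cells. Cmss1, a protein of ribosome assembly, was at 1152 against 53.8 CPM in WT and at 908 against 70.8 CPM in KO. Camk1d, a calcium-dependent kinase, was at 510 against 7.72 CPM and at 362 against 32.6 CPM. Gphn, gephyrin, was at 408 against 15.2 CPM and at 376 against 68.2 CPM. Lars2, the mitochondrial leucyl-tRNA synthetase, was at 324 against 19.3 CPM and at 186 against 37.8 CPM. None of these is a sarcomere gene, and in the other kept cells they lay between 17.3 and 173 CPM. Against muscle cells with 1000 to under 2000 genes the WT log2 ratios of Cmss1, Camk1d, Gphn and Lars2 were 2.75, 3.62, 2.61 and 2.78. In KO they were 0.80, 0.98, 0.93 and 1.07, so that there only Lars2 was past 2-fold.

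Mitochondrial-encoded genes were low although the rule allowed up to 15%. They made up 2.97% of low-gene UMIs in WT against 8.23% in muscle cells, and 2.96% against 10.1% in KO. Of 13 tested genes, 11 were lower in each library, with median log2 ratios of -1.76 and -2.02. mt-Cytb, a subunit of respiratory complex III, was at 2238 against 9855 CPM in WT and at 2550 against 12130 CPM in KO. The nuclear genes of the same respiratory chain had medians of 0.20 and 0.21 over 74 tested genes each, with 1 higher in WT and none lower. The rule capped the mitochondrial share of both classes at the same value, so the share is limited from above and its difference is a description. Against muscle cells with 1000 to under 2000 genes the mitochondrial medians turned to 1.97 and 1.14.

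ER chaperones, the folding proteins of the endoplasmic reticulum, were lower for 3 of 8 tested genes in each library, against 9.7% of all genes in WT and 13.4% in KO, with medians of -0.84 and -0.75. Pdia6, a disulfide isomerase, was at 48.0 against 206 CPM in WT and at 97.6 against 208 CPM in KO, and Hsp90b1, a chaperone of that compartment, at 150 against 315 CPM and 112 against 307 CPM. Both turned upward against muscle cells with 1000 to under 2000 genes, to log2 ratios of 0.41 and 1.98 in WT and 1.75 and 1.18 in KO. Cytosolic heat shock genes had medians of 0.18 and 0.12 with none of 7 called. Ribosomal protein genes had medians of -0.06 in WT and 0.49 in KO, with 1 of 79 called in KO, Rps26, at 3463 against 1629 CPM.

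Some cell division genes were called higher than in muscle cells. Of 4 tested genes of the G2M phase 2 were higher in WT, and 3 of 3 in KO, where 9.63% and 4.28% of all genes were. In WT the whole list summed to 1518 CPM against 824.5 in muscle cells and 4960 in the other kept cells, but to 900.5 CPM in the low-gene barcodes above the 1% line and 3102 CPM in the 37 below it. Hmgb2, a chromatin protein of dividing cells, was at 408 CPM in WT against 193 in muscle cells and 991 in the other kept cells, and at 202 against 87.1 and 411 CPM in KO. Its WT log2 ratio of 1.08 turned to -0.21 in the barcodes above the 1% line and to -0.27 with a maximum of 500 genes. Ube2c, which helps cells leave mitosis, was higher in KO at 125 against 48.2 CPM, with 284 CPM in the other kept cells, and was at 132 against 79.6 CPM in WT.

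Markers of other cell types were scarce. None of 8 endothelial markers had a UMI in either library, and with 3 counts as the floor set for zeros this is under 18.0 CPM in the WT sum and 3.37 in the KO sum. Of 6 red blood cell markers none had a UMI in WT and 1 had a single UMI in KO. Of 8 immune markers 7 were at 0 in WT and 6 in KO, Ptprc, Csf1r and Lyz2 among them, and the list summed to 90 and 51.6 CPM, against 113 and 73.2 CPM in muscle cells. Neural and Schwann cell markers summed to 6.0 and 8.97 CPM with 7 and 4 of 8 at 0, and adipocyte markers to 18.0 and 14.6 CPM with 5 and 4 of 6 at 0. Satellite cell markers together held 282 (WT) and 158 CPM (KO), against 643 and 930 CPM in the other kept cells. Fibroblast matrix markers summed to 378 and 556 CPM against 926 and 2680 CPM, with Col1a1 and Pdgfra at 0 in both libraries. Smooth muscle markers summed to 5016 and 5407 CPM, a list that shares Des with the sarcomere lists and stood at 4046 and 4935 CPM in muscle cells.

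The low-gene barcodes below the 1% line, 37 in WT and 85 in KO, still held more sarcomere UMIs than the other kept cells. Their sarcomere genes held 12771 CPM (WT) and 23867 CPM (KO), against 4678 and 3673 CPM in the other kept cells and 17855 and 34900 CPM over all deposited barcodes. In KO 1 barcode of 4251 UMIs, with a sarcomere share of 41.1%, held 1746 of the 4337 sarcomere UMIs, and without it the KO level was 14600 CPM. Fibroblast matrix markers were at 963 and 1348 CPM in them and at 150 and 354 CPM in the low-gene barcodes above the line. They had median depths of 948 UMIs in WT and 2014 UMIs in KO, so in KO they were the deeper barcodes. As the line was drawn on 5 of the sarcomere genes, the difference between these barcodes and those above it is fixed by the choice. Many lay just under the line, since 14 of the 37 in WT and 66 of the 85 in KO had at least 0.5% of UMIs from the 5 genes. Among the other kept cells 181 of 6144 in WT and 103 of 4624 in KO did.

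Profiles were compared across genes as a description. The genes were those with at least 100 CPM in low-gene barcodes or muscle cells, without the sarcomere genes. Genes that reach this level only in the other kept cells are thus left out, which favours the muscle cells in this comparison. Over 1478 WT genes, Pearson's r of log levels between low-gene barcodes and muscle cells was 0.807, against 0.695 with the other kept cells, 0.786 with all deposited barcodes and 0.878 with muscle cells of 1000 to under 2000 genes. Over 1447 KO genes these were 0.865, 0.722, 0.855 and 0.937. Genes are not independent replicates, and the all-barcode profile contains the other classes. Over the genes so chosen, muscle cells with 1000 to under 2000 genes were the closest of the 4 profiles in both libraries.

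Between the libraries, low-gene barcodes of KO over WT had 159 of 1565 genes higher (10.2%) and 254 lower (16.2%). The muscle cells, compared likewise, had 147 of 1518 genes higher (9.68%) and 95 lower (6.26%). The low-gene sums held only 166675 UMIs in WT and 891379 in KO, while the muscle sums held 48729413 and 55377212. The low-gene counts thus carry more counting error, mostly from WT, and the part of depth in them was not tested. Of 48 sarcomere genes 4 were higher and 9 lower, with a median log2 ratio of -0.17, and of 15 energy enzymes 7 were higher and 0 lower, with a median of 0.91. Spp1, osteopontin, was at 1219 CPM in KO on 1087 UMIs, of which 1 barcode held 503, and at 18.0 CPM in WT on 3 UMIs (ratio 67.8, 23.1 to 329). S100a4, a calcium-binding protein, was at 414 against 12 CPM on 2 WT UMIs (ratio 34.5, 9.48 to 286), and Serpinb1a, a protease inhibitor, at 265 against 12 CPM on 2 WT UMIs (ratio 22.1, 6.04 to 183). Mybpc2 was at 227 against 12 CPM. Prxl2b was at 108 CPM in KO on 96 UMIs, and had 1 UMI in WT (ratio 18.0, 3.15 to 716). Spp1, S100a4, Serpinb1a and Mybpc2 had 511 against 12.3, 222 against 4.13, 225 against 4.39 and 21.4 against 1.01 CPM in the muscle cells of these libraries.

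Lower in KO among low-gene barcodes were Nnat, at 10.1 against 240 CPM (ratio 0.0421), and the calcium channel gene Ryr3, at 15.7 against 144 CPM (ratio 0.109). Grip1, a scaffold protein of synapses, was at 11.2 against 126 CPM (ratio 0.0890). Their levels in muscle cells were 4.04 against 105, 56.3 against 326 and 71.1 against 681 CPM. Crabp1, a retinoic acid binding protein, had 230 UMIs in 30 KO barcodes and 0 in WT, which gives a ratio of 14.3 with 3 counts set as the WT floor. In 1 KO barcode lay 43 of those UMIs. Nrep was at 4.49 against 114 CPM (ratio 0.0394) and at 1.93 against 18.0 CPM in muscle cells. Of the other genes of lowest KO over WT ratio, Actg2 had 1 UMI in KO and 21 in WT. S100a8 had 4 UMIs in KO and 31 in WT, at 4.49 against 186 CPM, and went the other way in muscle cells, at 2.17 against 0.123 CPM.

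With so few UMIs in a barcode, single barcodes set some of the calls. Of the 147 WT genes called higher, 14 had over 50% of their UMIs in 1 barcode, and 67 were still higher once each gene's highest barcode had been left out. In KO 1 of 64 had over 50% in 1 barcode, and 50 were still higher. S100a8, a neutrophil protein, was called higher in WT on 31 UMIs that all lay in 1 barcode. Igf2, a growth factor, had 33 of 46 WT UMIs in 1 barcode, and its ratio of 11.9 became 3.36 without it. Actg2 and Cald1, an actin and a regulator of smooth muscle, had 13 of 21 and 18 of 32 WT UMIs in 1 barcode. Without that barcode the ratio of Actg2 went from 48.0 to 18.3 and that of Cald1 from 10.9 to 4.75. Actg2 was seen in 5 WT barcodes and Cald1 in 7, and Cald1 was also called higher in KO. The sizes of these WT ratios describe a few barcodes more than the class.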

How the data were processed

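RNA was measured with the Chromium 3′ v3.1 chemistry in 1 MyoD-WT and 1 MyoD-KO library. The authors deposited raw UMI counts for each of 25906 genes and each called barcode, and per the file headers these counts are output of Cell Ranger 7.2.0. The submitters' processing notes also list GRCm39 and Seurat. Which annotation release was used, and whether intronic reads were counted, is not given in the sources used here. Barcodes, members and gene lists were chosen with earlier results of these data known.

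UMIs were summed over the barcodes of each class and scaled to CPM. A gene was tested with at least 100 CPM in the higher class and called at 2-fold, with 0 counts set to 3. Ratios have intervals conditional on the summed count. Detection was compared after thinning each barcode to 500 UMIs (seed 1). On simulated counts with 100 genes made 3-fold higher and 100 lower, all were called in both libraries. Of the unchanged tested genes 26 of 1134 (WT) and 0 of 1120 (KO) were also called. The counts were Poisson draws for whole classes, without differences between barcodes, and the changed genes lay well above 100 CPM in muscle cells. The simulation therefore does not cover calls near 2-fold or 100 CPM, nor calls set by 1 barcode. Scrublet, as run by scanpy 1.11.5 at a rate of 0.06, called 2 of 7318 WT and 0 of 5782 KO kept cells, too few to have worked, so doublets were not removed. Leaving out the 6% of cells with the highest scores was an alternative, as were TMM scaling (edgeR 4.0.16) and other thresholds. Spans came from GENCODE's GRCm38 annotation.

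Genes are named by a rule. It takes the 3 markers and the 5 reference genes, the 10 most abundant genes, the 12 highest and 12 lowest ratios, up to 4 members of each list with the largest ratio, and the 6 highest and 6 lowest KO over WT. Not all genes so chosen are described, and 1 result is not reported here. The ranked ratios leave out sex-linked, Rik, Gm, mitochondrial and ribosomal protein genes. Myod1, Myog, Pax7, Mid1, the genes named as having no UMI and those of the closing section lie outside this rule and were chosen after their values were seen. Depth limits genes under about 100 CPM, since 1 UMI is 6.00 CPM in the WT low-gene sum and 1.12 CPM in the KO one.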

Additional observations from a re-analysis of the deposited data

Results flagged for a closer look

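Mid1, an X-linked ubiquitin ligase, was the only gene called in opposite directions in the 2 libraries. Its log2 ratio of low-gene barcodes over muscle cells was 1.11 in WT (34 UMIs in 4 barcodes, 204 against 94.5 CPM) and -2.21 in KO (22 UMIs in 22 barcodes, 24.7 against 114 CPM). The difference was not tested. In WT 31 of the 34 UMIs lay in 1 barcode, and without it the log2 ratio was -2.38, close to that of KO.

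That WT barcode drew 67.4% of its non-mitochondrial UMIs from the X chromosome, 695 UMIs over 134 genes, led by Sh3kbp1 (70 UMIs), Shroom2 (38) and Acsl4 (31). The next highest WT low-gene barcode had 5.70%, the highest kept WT cell 5.81% and the highest KO low-gene barcode 5.77%. The barcode had 1079 UMIs, 398 genes and a sarcomere share of 3.89%, and the median span of its X-linked genes was 61.3 kb.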

How the results depend on the processing

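No paired analysis was possible because each genotype has 1 library and no replicate. Depth limits the low-gene values, with 166675 UMIs in WT and 891379 in KO. In all, 19 alternative settings were run. Those chosen after seeing the data were the low-gene barcodes above the 1% line, the references of 1000 to under 2000 and of at least 4000 genes, and leaving out Mef2c-rich barcodes, the X-rich barcode or each gene's highest barcode.

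The sarcomere share of low-gene UMIs (8.66% in WT, 9.22% in KO) was 7.58% and 10.0% with a maximum of 500 genes, 8.0% and 9.32% with 750 genes, 9.12% in WT with a mitochondrial maximum of 10%, 9.22% and 9.12% without the 5% of barcodes with the most UMIs, 8.92% and 9.5% with totals without mitochondrial UMIs, and 8.47% and 9.54% as a mean over barcodes. It was 11.5% and 11.0% for barcodes above the 1% line, and 8.06% and 8.87% without Mef2c-rich barcodes. The share of barcodes above the 1% line in KO (87.9%) was 97.96% with a maximum of 500 genes and 91.9% with 750.

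The log2 ratio of the sarcomere total (0.18 in WT, -0.22 in KO) was -0.015 and -0.10 with a maximum of 500 genes, 0.063 and -0.21 with 750 genes, 0.28 and -0.13 with a mitochondrial maximum of 10%, and 0.27 and -0.24 without the 5% of barcodes with the most UMIs. With a reference threshold of 0.5% it was 0.31 and -0.14, and with 5% it was -0.66 and -0.61. It was -0.039 and -0.015 with TMM scaling, 0.10 and -0.33 without mitochondrial UMIs, 0.024 and -0.27 as a mean over barcodes, and 0.056 and -0.34 without the cells of highest doublet score. It was 0.59 and 0.029 above the 1% line, 0.20 and -0.21 against at least 4000 genes, -0.28 and -0.52 against 1000 to under 2000 genes, and 0.074 and -0.28 without Mef2c-rich barcodes.

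Genes called higher (147 in WT, 64 in KO) numbered 451 and 100 with a maximum of 500 genes, 221 and 107 with a reference threshold of 5%, 95 and 109 with TMM scaling, 67 and 35 at 200 CPM, and 1308 and 260 at 10 CPM. They numbered 222 and 35 above the 1% line, 348 and 100 against 1000 to under 2000 genes, and 67 in WT without each gene's highest barcode. Genes called lower (148 and 200) numbered 86 in KO with a maximum of 500 genes, 85 in KO as a mean over barcodes, 72 and 79 at 200 CPM, 1046 and 1798 at 10 CPM, and 35 and 12 against 1000 to under 2000 genes. The median log2 ratio of all genes was -0.10 and 0.33 with TMM scaling.

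Some log2 ratios changed sign, and the cause was not tested. In WT a maximum of 500 genes gave -0.056 for Myoz1, 0.041 for Atp2a2 and -0.27 for Hmgb2. A reference threshold of 5% gave -0.73 for Myh4, -0.36 for Myoz1, -0.013 for Xirp2, 0.17 for Ryr3 and 0.21 for Cdkn1c. Barcodes above the 1% line gave -0.21 for Hmgb2 and -2.50 for Mid1, and Mid1 was -2.38 without the X-rich barcode and -2.39 without its highest barcode. Against muscle cells with 1000 to under 2000 genes the WT values were 0.66 for the fusion and membrane median, 1.97 for the mitochondrial median, 0.95 for Atp2a2, 0.81 for Casq2, 2.51 for Ryr3, 1.96 for Dmd, 0.99 for Ncam1, 0.41 for Pdia6, 1.98 for Hsp90b1, 1.60 for mt-Cytb and 1.77 for mt-Nd1. The KO values were 0.26 and 1.14 for the 2 medians, 0.42 for Myh3, 1.45 for Neb, 1.66 for Ttn, 0.65 for Flnc, 0.79 for Nrap, 0.95 for Atp2a2, 1.10 for Casq2, 0.15 for Jph1, 0.91 for Dmd, 1.05 for Ncam1, 0.74 for Itga7, 0.34 for Mef2a, 1.75 for Pdia6, 1.18 for Hsp90b1, 0.92 for mt-Cytb, 1.13 for mt-Nd1, -0.090 for Rps26 and 0.10 for Mid1. Of the other values, 142 list medians moved, of which 95 kept their sign, and 726 single-gene ratios moved, of which 629 kept theirs.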

Other observations

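A few low-gene barcodes stood out by Mef2c, and they were picked after the values had been seen. In 10 WT and 17 KO low-gene barcodes Mef2c held at least 1% of UMIs, 22919 CPM and 31014 CPM when summed, against 1582 and 795 CPM in the other low-gene barcodes. Their sarcomere share was 13.3% in WT and 21.5% in KO, against 8.06% and 8.87% in the others. At 1000 CPM or more, 64 of 222 WT genes and 62 of 231 KO genes were at least 2-fold higher in them and 10 and 72 lower, and 34 higher genes were shared, which is 53.1% of the WT and 54.8% of the KO genes. The shared genes include Golga4, Ankrd23, Xirp2, Trp53inp2, Mtss2, Dynll2, Bag1 and Trdn. Among the genes higher in KO were Mybpc2 (6236 against 57.7 CPM), Myh4 (24696 against 328 CPM), Ttn (21948 against 1210 CPM) and Neb (9066 against 362 CPM), of which Ttn was also higher in WT. In KO 1 barcode of 4251 UMIs held 501 of 602 Myh4, 335 of 535 Ttn, 141 of 221 Neb and 60 of 152 Mybpc2 UMIs. Without it these levels were 5019, 9938, 3975 and 4571 CPM, and the KO sarcomere share was 17.4%. The genes higher in these barcodes had a median spliced length of 3817.5 bases in WT and 4042.5 in KO, against 915 and 950 bases for genes called in neither direction. Since the barcodes were chosen on Mef2c, its level there is no finding, and the other values describe 27 barcodes.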
